A study of Mus musculus with 30 samples.

Results

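The later phase of the tumour response to oxaliplatin, from 6 to 18 hours after injection, was examined in mice pre-treated with antibiotics. It comprised 10 of the 30 arrays of the series, 5 of tumours taken at 18 h and 5 of tumours taken at 6 h, chosen by their sample titles alone. All tumours were subcutaneous grafts of EL4, a mouse T cell lymphoma line, and the labels place each collection at 18, 6 or 0 h after oxaliplatin, a platinum drug that forms DNA adducts, given at 10 mg per kg intraperitoneally 7 days after grafting. The antibiotic mice, at 18, 6 and 0 h, had taken an antibiotic cocktail for 3 weeks before the graft, and the water mice, at the same times, had not. Titles carry the prefix WT, and no other genotype, strain, sex or age was given. No group without oxaliplatin was labelled at 18 or 6 h, so time after the drug, tumour growth and hour of collection cannot be told apart. The drugs of the cocktail and whether each array stands for a separate mouse were not given, so p-values measure the spread between these arrays, which may be technical.

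Platinum adducts are known to stabilise p53, which turns on genes for cell cycle arrest and death. A separate pathway, the integrated stress response, begins when kinases that sense amino acid shortage, misfolded protein or other stress phosphorylate the translation factor eIF2. General translation then slows while that of the transcription factor Atf4 rises, and Atf4, with partners such as Ddit3 (CHOP), turns on amino acid transporters, amino acid synthesis enzymes and aminoacyl tRNA synthetases. Dividing T cells and lymphoma cells are known to depend on a large uptake of amino acids.

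Genes of the integrated stress response, of amino acid uptake and synthesis and of tRNA charging were among those that fell between 6 and 18 h. The 4 lists that cover these functions held 57 distinct measured genes. Of these, 20 were lower at 18 h and 0 were higher in limma's moderated test (adjusted p under 0.05, fitted on all 30 arrays with a mean for each of 6 groups and adjusted by Benjamini-Hochberg over 19938 genes). In the background, 0.888% of all genes were called lower and 1.23% called higher at 18 h against 6 h. The median change over the 57 genes was -0.176 on the log2 scale, against -0.0014 over all genes, and 49 of the 57 values were negative. In other lists, 5 mitotic genes and 2 p53 targets rose, 2 histone genes fell, and of the circadian genes 3 fell and 1 rose.

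In total, 245 genes rose and 177 fell. The changes were small, with 23 of the 422 over 0.5 log2 units and 1 over 1 unit. The groups did not overlap for 150 of the genes that rose and 111 of those that fell. Over all genes, the 5 arrays at 18 h lay wholly above the 5 at 6 h for 1.57% and wholly below for 1.22%. These counts came from a fit whose spread estimate was shared by 6 groups. The antibiotic tumours at 6 h varied more than the others, with a median gene SD of 0.135 log2 units, against 0.0954 in the antibiotic tumours at 18 h and a pooled residual SD of 0.115. A fit on the 10 arrays alone called 0 genes (smallest adjusted p 0.13, with 2148 genes at an unadjusted p under 0.05), and 3196 genes had an unadjusted p under 0.05 in the fit on 30 arrays. The fit on 10 arrays also has fewer residual degrees of freedom, and why the fits differ in their counts was not tested. The calls below are those of the fit on 30 arrays, and none of them passed in the fit on 10. Simulated arrays kept each gene's own SD in each group, drew genes independently and held added changes of 0.5 or 1 log2 unit. The fit on 30 arrays recovered these added changes. Smaller changes, the size of most calls here, were not simulated, so their recovery is not known. A larger share of the calls than the 0.05 threshold allows were genes with no added change. That share depends on the chosen number of changed genes and on SDs that each came from only 5 arrays. The adjusted p-values printed here may be too small, by an amount not known.

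Arrays 3 and 5 at 6 h stood apart, and skin markers varied from array to array. Array 3 had a narrower distribution, with quartiles of 6.371 and 9.158 log2 units where the other 6 h arrays had lower quartiles of 6.112 to 6.19 and upper quartiles of 9.267 to 9.316. Array 5 held the highest value among the 10 arrays for each of the 18 measured skeletal muscle markers, for example 11.60 for Ckm, the muscle creatine kinase, against 8.97 to 9.93 in the other 6 h arrays. Array 1 held the epidermal keratins Krt1 at 9.73 and Krt10 at 10.28, against 5.53 to 5.78 and 6.30 to 6.57 in the other 6 h arrays. Over all 17 keratinocyte markers, the list mean, as a log2 deviation from the mean of 30 arrays, varied further: at 18 h it was 0.678 in array 1 and at most 0.0771 in the others, and at 6 h it was 1.701 in array 1, 1.02 in array 4, 0.559 in array 2 and at most 0.0695 in arrays 3 and 5. Left out together, arrays 3 and 5 reduced the count to 236, of which 63 rose and 173 fell, so that the excess of genes that rose turned into an excess of genes that fell. Without array 3 alone 77 rose and 115 fell.

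**Figure D1:**
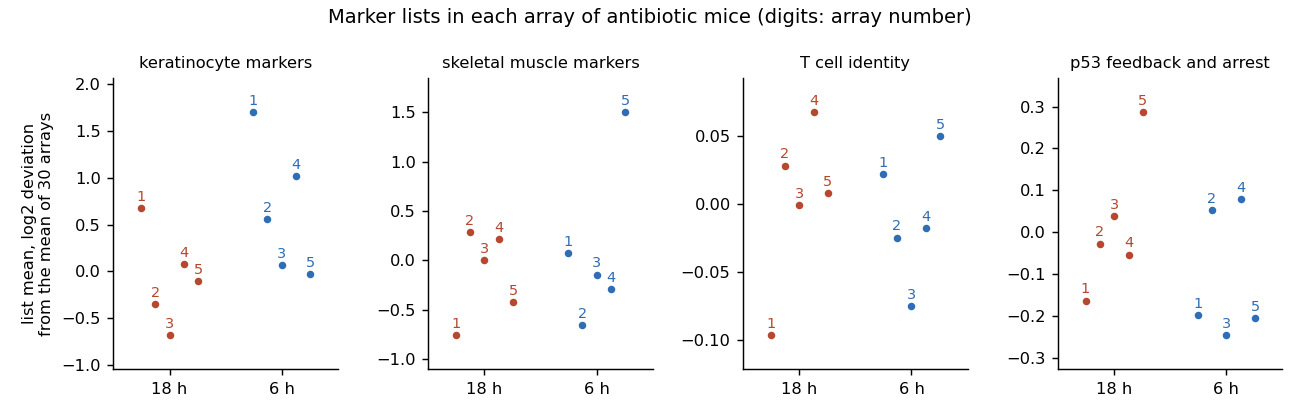
Mean of each marker list in every array, as the log2 deviation from the list's mean over 30 arrays, for the antibiotic tumours at 18 h (left) and 6 h (right); digits number the arrays. Keratinocyte means ran from -0.682 to 0.678 at 18 h and from -0.032 to 1.701 at 6 h, 1 array at 6 h stood at 1.504 for muscle, the T cell means of the groups overlapped, and p53 targets were highest in array 5 at 18 h.

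The labelled cell type was checked with 17 T cell genes. Thy1 measured 11.86 to 11.96 at 18 h and 11.74 to 11.97 at 6 h, and Cd3e, a chain of the T cell receptor complex, 11.20 to 11.27 at 18 h and 11.12 to 11.27 at 6 h. Thy1 is also a member of the fibroblast and matrix list. The values carry no detection call, so presence was not judged. None of the 17 passed the test (2 higher and 2 lower at an unadjusted p under 0.05), Cd3d coming nearest at -0.18 ± 0.0503 (SE; adjusted p = 0.0501). Changes over the 17 genes ran from -0.244 to 0.505, with 7 positive and 10 negative values. In bulk tumours, fewer cells of a type and less RNA per cell cannot be told apart.

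Atf4 and its C/EBP partners are known to bind a composite element with the core TGATGNAAN. Promoters of 4 genes that fell, picked because they hold a match to it, are shown first. The 4 below are RefSeq promoters of build GRCm38.p6, each 250 bases before to 50 after the annotated start, with the match on either strand in capitals.
Chac1, chr2:119350992-119351291, strand +: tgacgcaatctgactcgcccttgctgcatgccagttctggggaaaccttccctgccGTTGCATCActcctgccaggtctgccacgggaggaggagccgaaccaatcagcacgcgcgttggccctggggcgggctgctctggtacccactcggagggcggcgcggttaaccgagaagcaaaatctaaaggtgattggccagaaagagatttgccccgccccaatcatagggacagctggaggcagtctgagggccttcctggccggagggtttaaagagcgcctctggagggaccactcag
Herpud1, chr8:94386179-94386478, strand +: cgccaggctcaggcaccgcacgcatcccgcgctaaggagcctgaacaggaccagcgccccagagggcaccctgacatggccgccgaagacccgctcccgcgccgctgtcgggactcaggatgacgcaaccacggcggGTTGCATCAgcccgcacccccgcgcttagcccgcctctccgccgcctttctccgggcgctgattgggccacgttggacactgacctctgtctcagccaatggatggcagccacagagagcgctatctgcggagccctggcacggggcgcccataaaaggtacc
Slc1a4, chr11:20332664-20332963, strand -: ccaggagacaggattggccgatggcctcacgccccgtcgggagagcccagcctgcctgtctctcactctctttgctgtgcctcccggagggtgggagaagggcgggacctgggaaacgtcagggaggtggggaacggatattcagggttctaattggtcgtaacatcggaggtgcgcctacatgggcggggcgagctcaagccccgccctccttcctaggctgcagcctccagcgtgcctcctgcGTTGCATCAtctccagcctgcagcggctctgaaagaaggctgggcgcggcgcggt
Trib3, chr2:152344011-152344310, strand -: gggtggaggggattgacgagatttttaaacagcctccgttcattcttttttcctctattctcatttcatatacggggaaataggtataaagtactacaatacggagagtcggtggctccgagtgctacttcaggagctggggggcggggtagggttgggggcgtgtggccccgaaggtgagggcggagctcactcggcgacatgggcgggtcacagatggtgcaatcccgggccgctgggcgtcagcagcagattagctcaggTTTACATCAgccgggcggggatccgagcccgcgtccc
The match in Chac1 begins 194 bases before the start, in Herpud1 113 before, in Slc1a4 5 before, and in Trib3 13 after. Over the 57 genes of the 4 lists, 44 had a promoter in the table, and 13 of them (29.5%) held the motif. Among the 16 of these 44 that were called lower, 6 held it: Chac1, Gars, Nupr1, Slc1a4, Trib3 and Yars. The rest of the 13, namely Asns, Atf3, Fgf21, Iars, Slc7a11, Tars and Vldlr, held it and were not called. The share over all tested genes with a promoter was 3.59% (561 of 15614), and over all promoters given it was 4.5%. Among all genes called lower it was 6.38% (9 of 141), which include Herpud1 and Pck2, and among all called higher 0.971% (2 of 206). The motif was chosen with the calls known, a match of these letters is not a binding site, and these lists were gathered partly from known Atf4 targets.

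Of the 19 measured genes of the integrated stress response itself, 7 fell and 0 rose, with a median change of -0.286. Trib3, a pseudokinase induced by Atf4 and CHOP that feeds back on both, measured 8.21, 8.10, 8.13, 8.32 and 7.77 in the 5 arrays at 18 h. At 6 h it measured 9.01, 9.07, 9.53, 8.81 and 8.56. Every 18 h array lay below every 6 h array, and Trib3 fell by 0.89 ± 0.146 log2 units (SE; adjusted p = 0.00182). Chac1, an enzyme that degrades glutathione, measured 8.56, 8.71, 8.77, 9.05 and 8.31 at 18 h, against 9.91, 9.80, 9.75, 9.45 and 8.87 at 6 h. The groups overlapped only in that array 4 at 18 h lay above array 5 at 6 h, and Chac1 fell by 0.87 (adjusted p = 0.00859). The regulators Ddit3 and Atf4 fell as well. Ddit3 measured 8.66, 9.03, 8.92, 8.94 and 8.67 at 18 h, against 9.33, 9.42, 9.37, 9.15 and 9.51 at 6 h, a fall of 0.51 (adjusted p = 0.00252). Atf4 measured 9.54, 9.53, 9.50, 9.63 and 9.32 at 18 h, against 9.81, 9.80, 9.82, 9.80 and 9.68 at 6 h. The change of Atf4 mRNA was small, -0.28 ± 0.0437 (adjusted p = 0.00176), but without overlap, and the array says nothing of Atf4 protein, on which the pathway is known to act.

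Gpt2, the mitochondrial alanine transaminase, fell by 0.66 (adjusted p = 0.00093) without overlap. The secreted glycoprotein Stc2 changed by -0.67 (adjusted p = 0.0189), and the stress cofactor Nupr1 by -0.43 (adjusted p = 0.0188), both without overlap. Other members did not pass. Atf5, a relative of Atf4, changed by -0.35 (adjusted p = 0.0716). Sesn2, a stress-induced inhibitor of mTORC1, ranged from 9.31 to 9.91 at 18 h and from 8.96 to 10.34 at 6 h. Asns, the asparagine synthetase and a classical Atf4 target, changed by -0.07 (adjusted p = 0.464), and Atf3 was the 1 member with a positive value, 0.14 (adjusted p = 0.715). Over the alternatives that kept all 6 groups, 5 to 10 members were called lower and 0 higher. Without the 6 h arrays 3 and 5 the count was 7, without arrays 1 and 5 it was 10, with the keratinocyte and muscle list means as covariates 9, and without array 5 at 18 h it was 5.

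**Figure D2:**
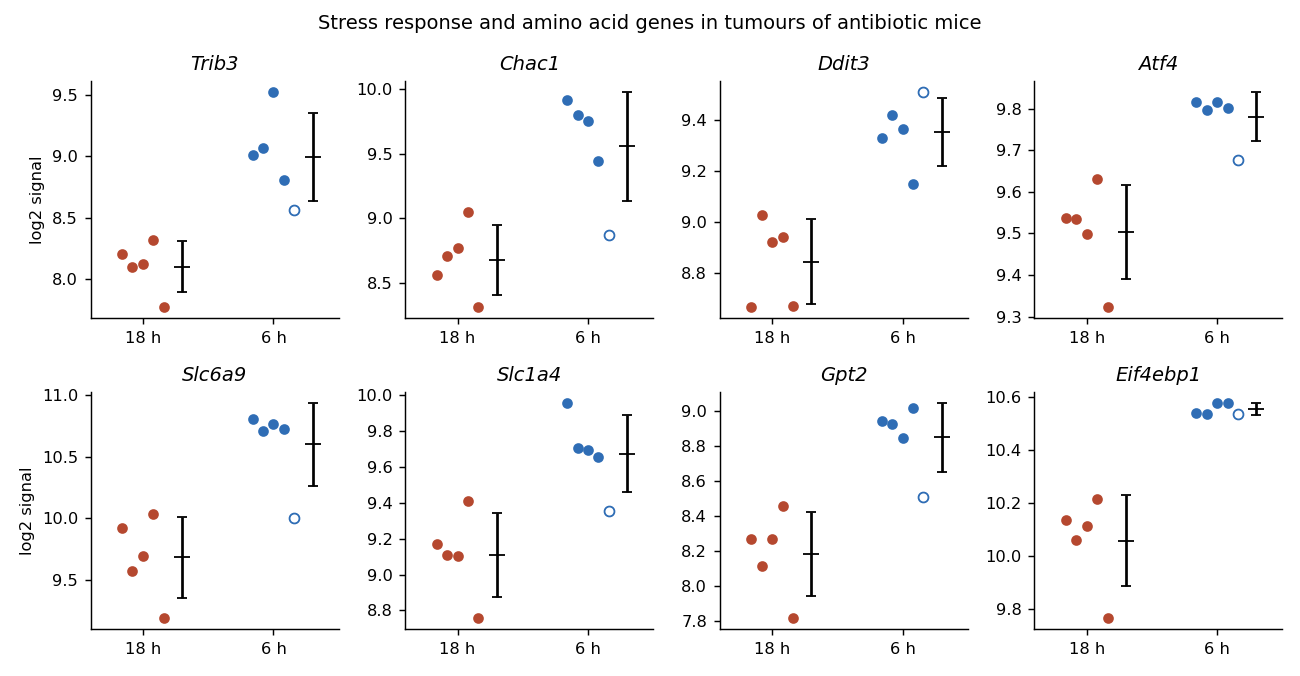
Log2 signal of 8 genes in each array of the antibiotic tumours at 18 h (left, red) and 6 h (right, blue), with mean and SD beside the points; array 5 at 6 h is drawn open. Ddit3, Trib3, Atf4, Gpt2 and Eif4ebp1 were below all 6 h arrays in every 18 h array, while 18 h values of Chac1, Slc6a9 and Slc1a4 reached past the open point.

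Of 13 measured amino acid transporters, 5 fell and 0 rose, with a median change of -0.186. Slc6a9, the glycine transporter GlyT1, measured 9.92, 9.58, 9.70, 10.04 and 9.19 at 18 h, against 10.80, 10.71, 10.77, 10.72 and 10.00 at 6 h. Only array 4 at 18 h and array 5 at 6 h crossed, and the fall of 0.92 ± 0.133 was the largest among the 177 genes called lower (adjusted p = 0.00093). Slc1a4, which exchanges alanine, serine and cysteine, measured 9.17, 9.11, 9.10, 9.41 and 8.76 at 18 h, against 9.96, 9.70, 9.70, 9.65 and 9.36 at 6 h, a fall of 0.56 (adjusted p = 0.00302). The cationic amino acid transporter Slc7a1 fell by 0.32. Of the large neutral amino acid exchanger, the heavy chain Slc3a2 fell by 0.26 (adjusted p = 0.00252) and the light chain Slc7a5 by 0.26 (adjusted p = 0.04). Slc7a11, the cystine importer, did not pass (-0.31, adjusted p = 0.51) and ranged from 9.72 to 10.19 at 18 h and from 9.09 to 10.63 at 6 h, its lowest value being in array 5 at 6 h. The glutamine transporter Slc38a1 changed by -0.03 ± 0.0483 (adjusted p = 0.829). The transporter count was 3 without array 2 or 5 at 18 h or without array 3 or 4 at 6 h, and 8 without array 5 at 6 h.

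Of 10 enzymes of serine, asparagine and proline synthesis and the linked folate cycle, 3 fell, with a list median of -0.125. The mitochondrial folate enzymes Shmt2 and Mthfd2 fell by 0.32 each (adjusted p = 0.00475 and 0.0369), and Aldh18a1, which starts proline synthesis, fell by 0.27 (adjusted p = 0.0266). The count was 1 without array 2 or 5 at 18 h or without array 3 or 4 at 6 h, and 5 without array 5 at 6 h. Phgdh, the entry enzyme of serine synthesis, did not pass (-0.11, adjusted p = 0.468). Of 17 cytosolic aminoacyl tRNA synthetases, 5 fell, with a median of -0.139: Cars by 0.35, Wars by 0.27, Yars by 0.26, Vars by 0.18 and Gars by 0.18 (adjusted p between 0.00435 and 0.0426). That count was 2 without array 5 at 18 h or without array 3 or 4 at 6 h, 3 without array 2 or 3 at 18 h, and 10 without array 5 at 6 h. Lysyl, histidyl, glutaminyl and arginyl tRNA synthetases (Kars, Hars, Qars and Rars) had changes of 0.00 to 0.06 and none passed. Outside the lists, Eif4ebp1 and Pck2 fell and ranked among the 12 with the smallest p. Eif4ebp1, a repressor of cap-dependent translation that Atf4 is known to induce, measured 10.14, 10.06, 10.11, 10.21 and 9.77 at 18 h, against 10.54, 10.54, 10.58, 10.58 and 10.54 at 6 h. It fell by 0.50 ± 0.0711, and its 6 h values were tightly grouped. Pck2, the mitochondrial PEP carboxykinase, fell by 0.62 (adjusted p = 0.00181), its 6 h values being 9.61 to 9.79 in arrays 1 to 4 and 9.02 in array 5.

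Of 20 measured genes of the unfolded protein response of the endoplasmic reticulum, 1 fell and 0 rose, and the median was 0.0875. The gene that fell was Herpud1, a component of the degradation machinery of the endoplasmic reticulum membrane. It measured 10.54, 10.52, 10.46, 10.69 and 10.33 at 18 h, against 10.87, 10.83, 10.92, 10.89 and 11.12 at 6 h, without overlap (-0.42 ± 0.065, adjusted p = 0.00152). The chaperones Hspa5 (BiP) and Hsp90b1 had values of 0.12 and 0.15 and did not pass (adjusted p = 0.236 and 0.152). Xbp1, the effector of the Ire1 branch, changed by -0.05 (adjusted p = 0.659).

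Levels at 0 h were set beside these values. Trib3 averaged 9.10 at 0 h, 8.995 at 6 h and 8.10 at 18 h. Slc6a9 differed from 0 h by -0.07 at 6 h and by -0.98 at 18 h, Eif4ebp1 by -0.05 and -0.55, and Herpud1 by -0.01 and -0.43. Chac1 and Slc1a4 differed from 0 h by -0.42 and -0.36 at 6 h and by -1.29 and -0.93 at 18 h. These values share the 6 h or 18 h arrays with the comparison above and add no independent evidence. Among all 177 genes that fell, the median difference from 0 h was 0.040 at 6 h and -0.176 at 18 h. For the 245 that rose it was -0.097 at 6 h and 0.135 at 18 h.

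**Figure D3:**
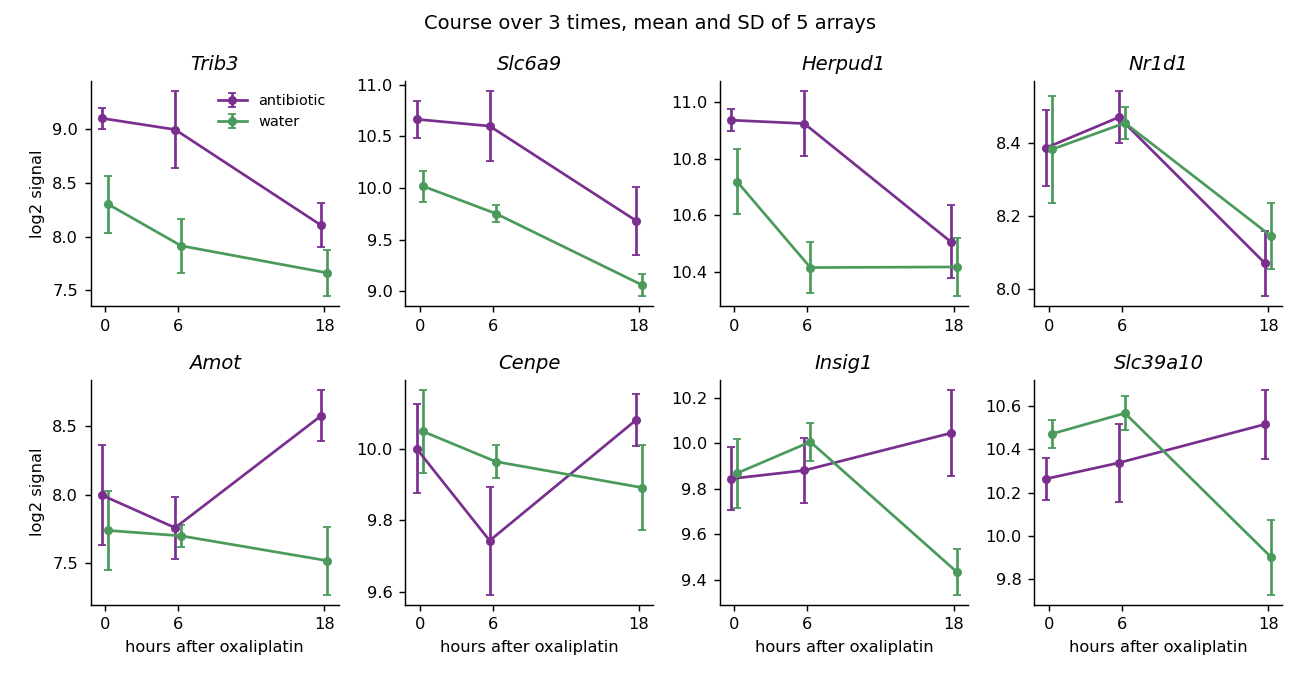
Mean and SD of 5 arrays at 0, 6 and 18 h after oxaliplatin for 8 genes, in antibiotic mice (purple) and water mice (green), in log2 signal. Trib3 and Slc6a9 in antibiotic mice stayed within 0.11 of 0 h at 6 h and were lowest at 18 h, while Insig1 and Slc39a10 were lower at 18 h than at 6 h in water mice and not in antibiotic mice.

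**Figure D4:**
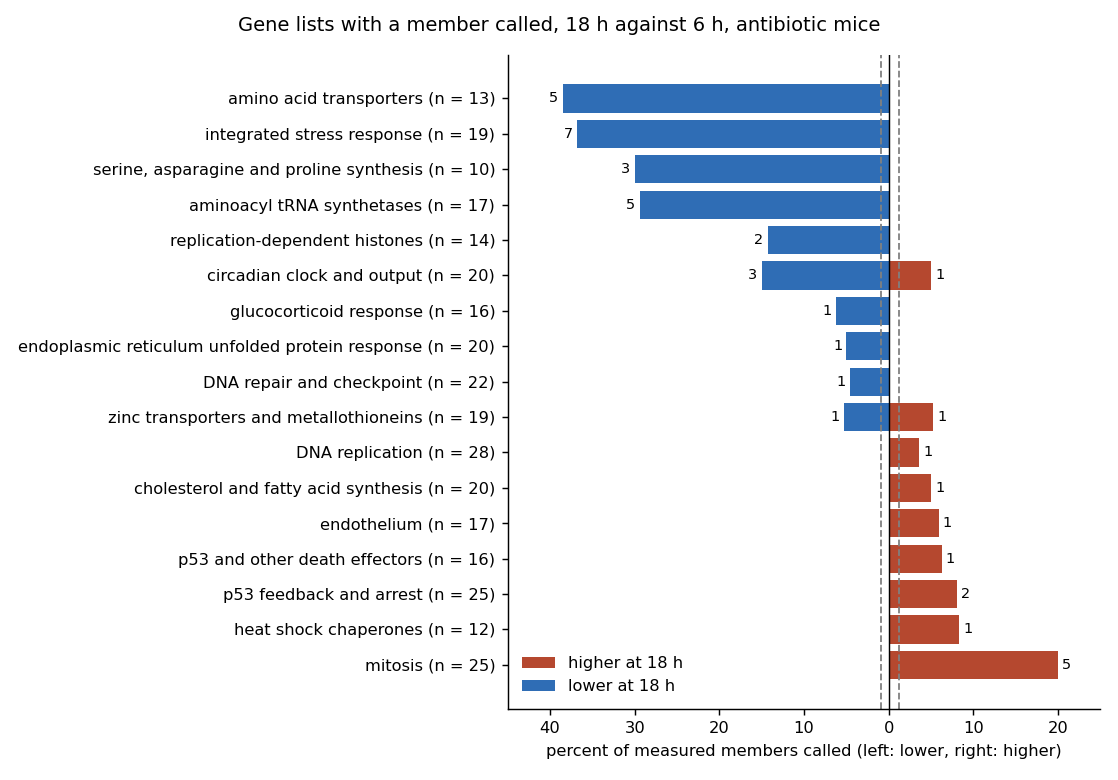
Percent of the measured members of each of the 17 lists with a call, right for genes higher and left for genes lower at 18 h against 6 h in antibiotic mice, with the number of genes at each bar; dashed lines mark the 1.23% and 0.888% of all genes. The 4 stress and amino acid lists had 29.4% to 38.5% of members lower, and mitosis had 20% higher.

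Of 25 mitotic genes 5 rose and 0 fell, with a median of 0.104. Cenpe, a kinetochore motor, measured 10.15, 10.03, 10.00, 10.06 and 10.16 at 18 h, against 9.96, 9.84, 9.60, 9.67 and 9.65 at 6 h, without overlap (0.34 ± 0.0691, adjusted p = 0.0132). Sgo2a, which protects centromeric cohesion, and Hmmr, a spindle protein, each rose by 0.28 without overlap. The cytokinesis kinesins Kif20a and Kif23 rose by 0.21 and 0.19. The kinases at the centre of mitotic entry did not pass: Cdk1 changed by -0.05, Plk1 by 0.09, and Aurka by 0.12 (adjusted p = 0.525, 0.398 and 0.274). The mitotic count was 1 without the 6 h arrays 3 and 5, 2 without array 5 at 18 h, and 3 without array 2 at 18 h, without array 3 or 4 at 6 h, with array weights or with array medians subtracted. In the 6 h group array 3 held the lowest value for Cenpe and Hmmr. Cep55, a protein of the abscission bridge that was not in the list, rose by 0.32 (adjusted p = 0.00244).

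Of 28 DNA replication genes 1 rose, the helicase subunit Mcm4 (0.18, adjusted p = 0.0299), and the median was 0.00533. Of 14 replication-dependent histone genes 2 fell, H2bc3 by 0.44 and H2bc14 by 0.35 (adjusted p = 0.0152 and 0.027), with a median of -0.136. H2ac4 was lower in every 18 h array than in any 6 h array and did not pass (-0.42, adjusted p = 0.0613). The histone count was 0 without array 5 at 18 h, 1 without array 2 or 3 at 18 h or array 3 or 4 at 6 h, 3 without array 5 at 6 h, and 4 without array 1 or 4 at 18 h. Histone genes are near-identical copies, so probes may be shared between them. Of 22 DNA repair and checkpoint genes 1 fell and 0 rose, with a median of 0.0806 and 21 positive values. The gene that fell was Ercc1, a subunit of the nuclease that excises platinum adducts, by 0.24 (adjusted p = 0.0132).

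Of 25 genes of p53 feedback and arrest 2 rose and 0 fell, with a median of 0.117 and 18 positive values. Ccng1, cyclin G1, measured 12.32, 12.39, 12.48, 12.32 and 12.68 at 18 h, against 11.99, 12.31, 11.97, 12.33 and 11.78 at 6 h. It rose by 0.36 (adjusted p = 0.0232), and Ei24, an autophagy-linked target, rose by 0.30 (adjusted p = 0.0233). The 6 h group split on these genes: arrays 2 and 4 lay near the 18 h values and arrays 1, 3 and 5 below. Trp53inp1, a pro-death target, measured 9.74, 9.96, 10.22, 9.66 and 10.75 at 18 h, against 9.29, 10.13, 9.18, 10.20 and 9.14 at 6 h. Its change of 0.48 ± 0.184 did not pass (adjusted p = 0.182). Mdm2, the p53 ubiquitin ligase and feedback inhibitor, did not pass either (0.19, adjusted p = 0.203), nor did Btg2, an antiproliferative target (0.28, adjusted p = 0.207). Fas, the death receptor, ranged from 7.43 to 8.53 at 18 h and from 7.01 to 7.65 at 6 h and missed the threshold (0.53, adjusted p = 0.0558). Of 16 death effectors 1 rose, Apaf1, the scaffold of the apoptosome, by 0.28 (adjusted p = 0.0488). Of the p53 feedback and arrest genes 0 were called without array 5 at 18 h, without array 3 at 6 h or with array weights, 1 without array 3 at 18 h, 4 without array 1 at 18 h, and 6 without array 2 at 6 h. Without the 6 h arrays 3 and 5, or 1 and 5, 0 rose and 1 fell. Array 5 at 18 h was the highest of its group for each of Ccng1, Ei24, Trp53inp1, Mdm2, Btg2 and Fas.

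Of 20 measured circadian clock and output genes, 3 fell and 1 rose, with a median of -0.0703. Nr1d1 (Rev-erb alpha), a repressor in the clock's secondary loop, measured 7.99, 8.08, 8.09, 8.20 and 7.99 at 18 h, against 8.49, 8.46, 8.52, 8.35 and 8.53 at 6 h. It fell by 0.40 ± 0.0613 (adjusted p = 0.00152) without overlap. The ubiquitin protease Usp2 fell by 0.29 and the output factor Dbp by 0.24, while Clock rose by 0.16 (adjusted p = 0.0195, 0.0386 and 0.0473). Ciart, a clock repressor, missed the threshold (-0.37, adjusted p = 0.0738). Per1, Per2 and Arntl (Bmal1) changed by 0.03, -0.07 and 0.01 and did not pass. The count was 1 lower and 0 higher without array 2 or 5 at 18 h, without array 4 at 6 h, or without the 6 h arrays 3 and 5. Clock also lost its call without array 3 or 4 at 18 h, without array 3 at 6 h, or with array medians subtracted. The hour of day of the collections was not given. Tsc22d3 (GILZ), the 1 of 16 glucocorticoid response genes called, fell by 0.35 (adjusted p = 0.0294).

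Over 14 immune lists with 218 distinct genes, limma called 0, and 172 of the 218 values were positive, with a median of 0.117. At an unadjusted p under 0.05, 34 (15.6%) were higher and 1 was lower, against 9.23% and 6.8% of all genes. Il6, a fever-inducing cytokine, measured 5.95, 7.84, 7.70, 7.35 and 7.23 at 18 h, against 6.71, 6.13, 5.59, 5.95 and 6.70 at 6 h. Arrays 2 to 5 at 18 h lay above the 6 h range and array 1 did not, and the change of 1.00 ± 0.312 did not pass (adjusted p = 0.0907). Il1b, the inflammasome product, had the same low array 1 at 18 h, 9.22 against 10.36 to 10.79 in the others (0.64, adjusted p = 0.158). The inflammasome sensor Nlrp3 came near the threshold at 0.54 (adjusted p = 0.0535), and Tnf did not (0.12, adjusted p = 0.347). The interferon-induced GTPase Gbp5 ranged from 6.24 to 8.81 at 18 h and from 5.76 to 7.17 at 6 h, again lowest in array 1 at 18 h. At 6 h, array 5 had the highest mean of its group in each of the 14 immune lists. For type I interferon-stimulated genes its list mean was 0.577, against -0.341 to -0.256 in the other 6 h arrays. Counts with arrays left out are not given for the immune lists.

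Markers of macrophages, neutrophils, dendritic cells, mast cells, natural killer cells, B cells and fibroblasts gave no call. The macrophage list mean at 6 h was 0.261 in array 5 and -0.359 to -0.185 in the other arrays. Array 5 was also the highest of its group for neutrophil, dendritic and natural killer cell markers. It was not the highest for mast cell, B cell or fibroblast markers. The macrophage pore protein Mpeg1 changed by 0.44 (adjusted p = 0.227) and the neutrophil antigen Ly6g by 0.26 (adjusted p = 0.218). The 1 call among 13 cell type lists was Flt1, an endothelial VEGF receptor, which rose by 0.38 without overlap (adjusted p = 0.0152). All 17 keratinocyte markers were lower at 18 h, with a median of -0.844, and all 18 muscle markers were lower, with a median of -0.212. None of the 35 had an unadjusted p under 0.05. Their part in the other results was not tested gene by gene. With both list means as covariates, 567 genes were called, 325 of them shared with the 422.

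Of the 12 named genes with the smallest p among those that rose, all but Sgo2a were in no list. Amot (angiomotin), a junction protein of the Hippo pathway, measured 8.30, 8.69, 8.69, 8.47 and 8.74 at 18 h, against 7.80, 7.88, 7.64, 7.44 and 8.03 at 6 h, without overlap (0.82 ± 0.148, adjusted p = 0.00475). Lipg, endothelial lipase, measured 10.01, 10.09, 10.31, 10.42 and 10.43 at 18 h, against 9.56, 9.14, 9.14, 9.37 and 9.84 at 6 h (0.84, adjusted p = 0.00578). The membrane mucin Muc13 rose by 0.56, the Rac exchange factor Prex2 by 0.47, and Mns1, a cilium and flagellum protein, by 0.36. Milr1, an inhibitory receptor of mast cells, rose by 0.36 and the nuclear envelope protein Syne2 by 0.30. Pdcd6ip (ALIX), a partner of the ESCRT machinery, had the smallest p of those that rose (0.25 ± 0.0404, adjusted p = 0.00182). Tnfaip8, which regulates apoptosis, and the actin-binding calponin Cnn3 rose by 0.22 and 0.23. Among genes that fell, Uhrf1bp1 (-0.35), Rhbdd1, a rhomboid protease (-0.34), Apba3, an adaptor (-0.33), Det1, a subunit of a ubiquitin ligase (-0.31), and Mrpl48, a mitochondrial ribosomal protein (-0.27), were each without overlap.

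The same interval in water mice was set beside these changes. In water mice 623 genes rose (3.12%) and 1287 fell (6.46%), so that 32.6% of the calls were higher, or 17.4% with array medians subtracted. Of the 422 genes called in antibiotic mice, 37 rose and 37 fell in both, which is 17.5% of the antibiotic calls and 3.87% of the 1910 water calls, and 21 were called in opposite directions. The 2 comparisons share no arrays but do share the estimate of spread. Of the genes that fell in antibiotic mice, 67.2% had a negative change in water mice, against 42.8% of all genes. Of those that rose, 52.2% had a positive change in water mice, against 57.2% of all genes.

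Of the 57 genes 19 also fell in water mice and 0 rose, and 12 fell in both, with a median change of -0.147 in water mice. Genes that fell in antibiotic and water mice were 7 and 3 of 19 stress response genes and 5 and 5 of 13 transporters. They were 3 and 4 of 10 synthesis enzymes and 5 and 7 of 17 synthetases. The stress response median was -0.286 in antibiotic mice and -0.0781 in water mice. The difference was negative for 16 of the 19, with 0 called, and positive for 13 of the 17 synthetases, with 1 called. Slc6a9 changed by -0.92 in antibiotic mice and -0.69 in water mice, Gpt2 by -0.66 and -0.55, Slc1a4 by -0.56 and -0.54, and Atf4 by -0.28 and -0.27. For the stress response members Trib3, Ddit3 and Stc2 the changes were -0.89, -0.51 and -0.67 in antibiotic mice and -0.25, -0.17 and -0.29 in water mice. The test of the difference between these changes did not pass for any of the 3 (adjusted p = 0.0651, 0.101 and 0.324). Over the 57 genes 1 differed, Iars, an isoleucyl tRNA synthetase, which changed by -0.11 in antibiotic mice and -0.36 in water mice (difference 0.25, adjusted p = 0.0413). Trib3 averaged 8.10 at 18 h and 8.995 at 6 h in antibiotic mice, and 7.66 at 18 h and 7.91 at 6 h in water mice. Herpud1 did differ, with a change of -0.42 in antibiotic mice and 0.00 in water mice (difference -0.42, adjusted p = 0.0101).

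**Figure D5:**
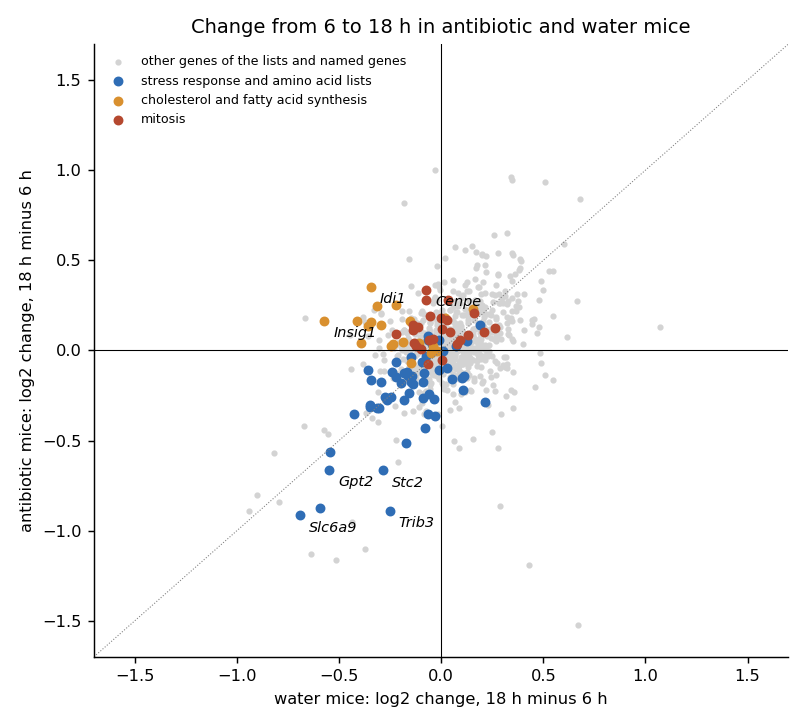
Log2 change from 6 to 18 h in antibiotic mice (vertical) against that in water mice (horizontal) for genes of the 50 lists and the named genes; the dotted line marks equal change. Stress response and amino acid genes (blue) sit mostly below 0 on both axes, and cholesterol genes (orange) mostly above 0 in antibiotic mice and below 0 in water mice.

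The test of the difference itself called 864 genes with a higher change in antibiotic mice (4.33%) and 194 with a lower one (0.973%). The split moved with the scaling, from 81.7% higher to 70.7% after quantile normalization and to 90.4% with array medians subtracted. Cholesterol and fatty acid synthesis differed in 9 of 20 genes, all higher, and the difference was positive for 20 of 20, with a median of 0.291. Insig1, which retains the sterol sensor in the endoplasmic reticulum, measured 10.34, 9.81, 10.03, 10.03 and 10.01 at 18 h and 9.86, 10.01, 9.80, 9.70 and 10.04 at 6 h in antibiotic mice. In water mice it measured 9.44, 9.43, 9.32, 9.40 and 9.59 at 18 h and 9.96, 10.14, 9.96, 10.04 and 9.94 at 6 h. The groups of antibiotic mice overlapped and those of water mice did not, and the difference of the changes was 0.74 (adjusted p = 0.00328). The other 8 were Dhcr7, Cyp51, Stard4, Hmgcs1, Idi1, Lss, Sc5d and Msmo1, named after their values were seen, with differences between 0.27 and 0.70. In antibiotic mice alone 1 of the 20 rose (5%, against 1.23% of all genes), the sterol dehydrogenase Nsdhl (0.23, adjusted p = 0.0289). There 17 of the 20 values were positive, with a median of 0.14. At an unadjusted p under 0.05, 7 (35%) were higher, against 9.23% of all genes. In water mice 9 of the 20 fell (45%, against 6.46% of all genes), and 18 values were negative, with a median of -0.227. Without the 6 h arrays 3 and 5 the 9 genes called for the difference became 5.

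Of 22 repair and checkpoint genes 8 had a higher change in antibiotic mice and 1, Ercc1, a lower one (-0.30). In antibiotic mice alone 0 of the 22 rose and 1 fell, while in water mice 1 rose and 7 fell. Rad54b, a recombination helicase, changed by 0.16 in antibiotic mice and -0.37 in water mice (difference 0.53, adjusted p = 0.00162). Without the 6 h arrays 3 and 5 the 8 became 2, and leaving out 1 array at a time gave 3 to 9. Mitosis had 7 of 25 higher, DNA replication 5 of 28 and heat shock chaperones 5 of 12, with Hsph1, a large chaperone, at 0.50. Without the 6 h arrays 3 and 5 these counts were 1, 1 and 4, and with 1 array left out they ran from 3 to 9, from 2 to 8 and from 3 to 5. In antibiotic mice alone mitosis had 5 genes that rose, DNA replication 1 and heat shock chaperones 1, and 0 fell in any. In water mice these lists had 3, 0 and 0 that rose and 2, 12 and 2 that fell. Of the single genes, Slc39a10, a plasma membrane zinc importer, had a difference of 0.84 ± 0.116 (adjusted p = 0.000695), from 0.18 in antibiotic mice and -0.67 in water mice. Smc2, the condensin core subunit (difference 0.50, adjusted p = 0.000326), and Stag1, a cohesin subunit (0.50), were alike in direction, as was Ankrd26 (0.55). Lower changes in antibiotic mice were found for Lgals12, a galectin of fat cells (-0.53), the lipase Abhd4 (-0.40), the phosphatase Ctdsp2 (-0.37), Eefsec, the elongation factor for selenocysteine (-0.36), Tmco4 (-0.36) and Slc39a11, a zinc transporter (-0.32). In Lgals12 the groups moved oppositely, with -0.30 in antibiotic mice and 0.23 in water mice.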

How the data were processed

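Total RNA of EL4 tumours was amplified, labelled with biotin and hybridised to Affymetrix mouse gene arrays, per the labels' protocols. The deposited series table holds log2 values, 1 per probe set and array. Partek 6.6 is named per the submitters' processing notes, and the normalization method, background correction and genome build are not given in the sources used here. The table has 28853 rows, and the array medians span 7.253 to 7.365 log2 units, so the values were taken as already normalized.

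Rows with 1 gene symbol (21775; 1578 had several and 5500 none, and both were left out) were reduced to 19938 genes by the row of highest mean over 30 arrays. No values were filtered or renormalized. limma 3.58.1 (R 4.3.3) fitted 6 group means with eBayes, and Benjamini-Hochberg adjustment ran over all 19938 genes with a threshold of 0.05. Samples were grouped by their titles. Arrays are numbered 1 to 5 within a group in accession order. The fit was tested on simulated data with each group's own spread: it recovered the added changes, and more of its calls than the threshold allows had no added change. Fold changes are differences of log2 means, 18 h minus 6 h, with 24 residual degrees of freedom. The values are array intensities, so their precision is limited by the number of arrays. Figures were drawn with matplotlib.

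Members and lists were chosen with earlier results of these data known. Named genes were the 12 higher and 12 lower genes with the smallest p among those called, up to 4 called genes (or, with none called, the 2 of smallest p) of each described list, up to 6 in each direction for the difference between antibiotic and water mice, and 18 genes always given. Predicted genes and RIKEN clones were counted and not named. The 50 lists had 921 places, of which 845 were measured. Other members are named beside these for contrast, after their values were seen. Alternatives tried were other normalizations, filters, weights, variance models, covariates and left-out arrays.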

Additional observations from a re-analysis of the deposited data

Results flagged for a closer look

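Single arrays stood far from the other 4 of their group for 25 of the 282 sets of 5 arrays looked at (141 named genes at 18 h and at 6 h), by Dixon's test of the gap at either end against the range. For independent, normally distributed values such a gap is found in about 1 in 20 groups. The 141 genes were read on the same 10 arrays, and many were picked by a small p in these data. The 282 sets are therefore not independent, and that rate cannot be set against the 25. There were 7 at 18 h and 18 at 6 h, and 14 of the 18 were in array 5. At 18 h, array 1 was lowest for Ddit4 (9.37), Il1b (9.22) and Ly6g (5.88) log2 units. Array 5 was highest for Mdm2 (11.27) and Milr1 (11.05) and lowest for Yars (10.65), and array 3 was lowest for Psmb6 (10.86). At 6 h, array 5 was lowest for Aldh18a1 (11.23), Atf4 (9.68), Mthfd2 (10.99), Pck2 (9.02), Slc3a2 (12.49) and Slc6a9 (10.00). The same array was highest for Arntl (9.28), Ccl5 (8.66), Klrk1 (5.80), Mpeg1 (9.34), Ncf4 (9.35), Pvalb (9.61), Tsc22d3 (8.87) and Vegfa (10.46). Array 2 at 6 h was highest for Gzma (9.84) and lowest for Lgals12 (6.86), array 3 highest for Gp9 (7.18), and array 4 highest for Psmb6 (11.14).

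The change from 6 to 18 h differed between antibiotic and water mice for 31 named genes in limma's test of that difference. It was higher in antibiotic mice, by the log2 difference in brackets, for Amot (1.00), Slc39a10 (0.84), Insig1 (0.74), Ankrd26 (0.55), Rad54b (0.53), Mns1 (0.51), Stag1 (0.50), Smc2 (0.50), Prex2 (0.49), Cep55 (0.43), Cenpe (0.41), Sgo2a (0.35), Clock (0.32), Dnaja1 (0.31), Mcm4 (0.31), Txnrd1 (0.23) and Slc39a6 (0.21). It was lower in antibiotic mice for Lgals12 (-0.53), Herpud1 (-0.42), Abhd4 (-0.40), Cd3d (-0.38), Ctdsp2 (-0.37), Tmco4 (-0.36), Eefsec (-0.36), Usp2 (-0.35), Cyba (-0.33), Slc39a11 (-0.32), Ercc1 (-0.30), Uhrf1bp1 (-0.27), Apba3 (-0.26) and Mrpl48 (-0.24).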

How the results depend on the processing

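No paired analysis was possible because the numbers in the titles run on through the groups and no number is shared between them. The 422 genes called at 18 h against 6 h in antibiotic mice became 681 after quantile normalization, 228 with array medians subtracted, and 516 with array weights, where 218 were higher and 298 lower. Fits on the 10 arrays alone called 0, with or without array weights (3008 and 2148 genes at an unadjusted p under 0.05). Without the 6 h arrays 1 and 5 the count was 1026, and without 3 and 5 it was 236. Leaving out 1 array gave 105 to 721: 163, 201 and 105 without arrays 2, 3 and 5 at 18 h, and 192, 121 and 721 without arrays 3, 4 and 5 at 6 h. The 1058 genes for the difference from water mice became 573 in a fit on its own 20 arrays, 1685 without the 6 h arrays 1 and 5, 306 without 3 and 5, and 511 to 1538 with 1 array left out. The 1910 genes in water mice became 3565 with array weights and 1072 to 2060 with 1 array left out. The cause of these shifts was not tested. Of the 60 named genes called, 60 kept their call after quantile normalization, 51 with medians subtracted, 42 without the 6 h arrays 3 and 5, 39 to 59 with 1 array left out, and 0 in the fits on 10 arrays; none changed sign in any of these. The weighted fit on 10 arrays and the fit without the 6 h arrays 3 and 5 were chosen after seeing the data.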

Other observations

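Several housekeeping lists had no gene called between 6 and 18 h in antibiotic mice. Over all genes, 9.23% were higher and 6.8% lower at an unadjusted p under 0.05 in limma's test. Ribosome biogenesis had 0 of 26 called by limma, with a median of -0.00429 and 7 (26.9%) lower unadjusted. Its list mean at 6 h was -0.127 in array 5 and 0.033 to 0.111 in the other arrays. Counts with arrays left out are not given for these lists. In water mice 11 of the same 26 fell (42.3%), against 6.46% of all genes. Oxidative phosphorylation had 0 of 24 called, with a median of -0.0255. At an unadjusted p under 0.05, 1 of its genes was higher (4.17%) and 4 were lower (16.7%). The proteasome had 0 of 22 called, with a median of -0.00932 and 3 higher and 2 lower unadjusted. Hypoxia and glycolysis had 0 of 19 called, with a median of -0.0741 and 1 lower unadjusted.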
